A study of Homo sapiens with 45 samples.

Results

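The 41 genes described here encode the machinery that licenses, unwinds and copies DNA in S phase, together with E2F transcription factors and the E-type cyclins. They were chosen by symbol from a fixed list, and each symbol matched exactly 1 row among the 26371 gene rows of the deposited expression table. The table holds 45 RNA-seq libraries of the cell line MM.1S, which was established from human multiple myeloma and is wild type by its labels. By its titles the study has 15 groups of 3 libraries. For each of 5 compounds there is a DMSO group at 0 h and a treated group at 6 h and at 24 h. The compounds are KB528 at 0.5 uM, listed as acting on the acetyltransferase domain of p300, GNE-781 at 0.3 uM and CCS-1477 (inobrodib) at 3 uM, both listed as acting on the p300 bromodomain, JQ1 at 0.5 uM, which inhibits BET proteins, and the immunomodulatory drug lenalidomide at 1 uM. All groups share the cell line, the wild-type genotype and growth in RPMI medium with fetal bovine serum, and the labels do not say whether replicates were separate cultures. The names of 0 of the 45 value columns matched a title, so no library is tied to a compound, a time or a replicate, and each is called by the number in its column name (1 to 27 and 37 to 54). The values below are therefore levels, spread and co-variation over unlabelled libraries, with no comparison between treatments and no test.

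In G1 phase the origin recognition complex, CDC6 and CDT1 load the ring of MCM2 to MCM7 onto DNA, and in S phase CDC45 and the GINS complex turn that ring into an active helicase. Polymerases alpha, delta and epsilon then copy the strands. The RFC complex loads the PCNA clamp, while ribonucleotide reductase, thymidylate synthase and thymidine kinase supply nucleotides. Cyclin E with CDK2 releases E2F factors from RB family proteins, and E2F factors bind and activate the promoters of many of these genes, so their messages are known to be abundant in cycling cells and scarce in cells that have left the cycle.

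The sequence that E2F factors are known to bind was looked for in the promoters. The members were listed as DNA replication and E2F target genes. A high share with this sequence is therefore in part built into the choice and is no independent support for it. Promoters were taken from RefSeq (build GRCh38.p14) as the 250 bases before to the 50 bases after each start, 300 bases in all. Of the 41 members, 36 had an entry. The letters searched were TTTCCCGC, TTTCGCGC, TTTGCCGC and TTTGGCGC, on both strands. At least 1 of them stood in 20 of the 36 members (55.6%), against 3.99% of 27305 genes with an entry. That background was not matched for expression or base composition. Counted by promoter, 21 of 46 held one (45.7%), against 3.31% of 35116 promoters of the same length. Below are stretches that hold a match upstream of an annotated start, with its surroundings. Only stretches that lay wholly outside every annotated exon of the gene are shown. All are written 5′ to 3′ in the direction of transcription, with the matching letters in capitals. They lie at chr1:23531242-23531301 (E2F2, minus strand), chr6:52284883-52284942 (MCM3, minus strand), chr2:135876558-135876621 and chr2:135876496-135876559 (MCM6, minus strand), chr20:5126648-5126707 (PCNA, minus strand), chrX:24693755-24693814 (POLA1, plus strand) and chr19:4909958-4910017 (UHRF1, plus strand). In MCM6 a pair of overlapping matches on opposite strands gives the longer run of capitals.
E2F2: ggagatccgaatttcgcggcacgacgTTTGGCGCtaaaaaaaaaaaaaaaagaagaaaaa
MCM3: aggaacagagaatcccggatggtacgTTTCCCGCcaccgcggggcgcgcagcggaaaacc
MCM6, farther from the start: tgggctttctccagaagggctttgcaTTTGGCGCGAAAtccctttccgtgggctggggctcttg
MCM6, nearer the start: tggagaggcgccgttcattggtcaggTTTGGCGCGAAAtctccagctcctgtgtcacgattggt
PCNA: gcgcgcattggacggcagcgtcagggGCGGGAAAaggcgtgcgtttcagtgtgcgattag
POLA1: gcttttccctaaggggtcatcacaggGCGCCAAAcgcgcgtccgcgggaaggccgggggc
UHRF1: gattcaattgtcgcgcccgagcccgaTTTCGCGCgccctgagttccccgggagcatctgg

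Other sequences known from cell cycle promoters had another distribution. The CCAAT box stood in 21 of the 36 members (58.3%), against 39.7% of all genes. It was as frequent in other replication genes (15 of 27 with an entry, 55.6%) and nucleolar genes (6 of 11, 54.5%). In G2 and M phase genes it was more frequent (12 of 14, 85.7%). The letters TTTGAA, the cell cycle genes homology region known from promoters of mitotic genes, stood in 1 member, RRM1 (2.78%), against 18.2% of all genes and 9 of 14 G2 and M phase genes with an entry (64.3%). Within that mitotic list, which shares no gene with the members, the E2F letters stood in 2 of 14. The background of all genes was not matched for base composition here either. A match of letters is a description and not a measured binding site.

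The values are TPM, which give each gene's transcripts as a share of a fixed total per library and are already divided by gene length, and 92 rows of ERCC spike-in RNAs share the total with the genes. Spike-ins took 2.90% to 17.4% of it (median 5.25%, highest in library 8), so a library with more spike-in has proportionally lower TPM for every gene. The median of all genes shifted by -0.25 to 0.26 on the log2(TPM + 1) scale between libraries. The files give no read counts, so depth is unknown and no counting interval can be given. Plasma cell markers summed to 3031 to 11844 TPM per library, whereas markers of T cells, monocytes, epithelial cells and fibroblasts summed to at most 1.79, 1.09, 2.58 and 1.79 TPM, and CD3D, CD2, LYZ, CSF1R and COL1A2 had a median of 0. No pair of libraries held identical values. Libraries 12, 18 and 43 stood apart, with a highest Pearson's r with any other library of 0.982, 0.991 and 0.992, against 0.995 to 0.997 for the others. Without them, the median spread of the members was 4.66-fold in place of 4.73-fold, and the median correlation between members was 0.865 in place of 0.856. In bulk RNA, fewer cells in S phase and less of each message per cell cannot be told apart.

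All 41 members passed the filter used for comparison with other genes, a median of at least 1 TPM, which 12198 gene rows passed. The median of the members' own medians was 51.5 TPM, against 22.6 TPM for all genes that passed. To place each library, a member score was formed as the median over the 41 members of log2(TPM + 1) minus that gene's own median over the libraries. It ran from -2.12 in library 8 to 0.85 in library 4, and 21 libraries lay within 0.2 of 0. Libraries 4 to 6 and 13 to 15 were the highest, at 0.68 or more. Libraries 7 to 9, 25 to 27 and 43 to 45 were the lowest, at -1.11 or less, and the next library up was at -0.27.

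**Figure D1:**
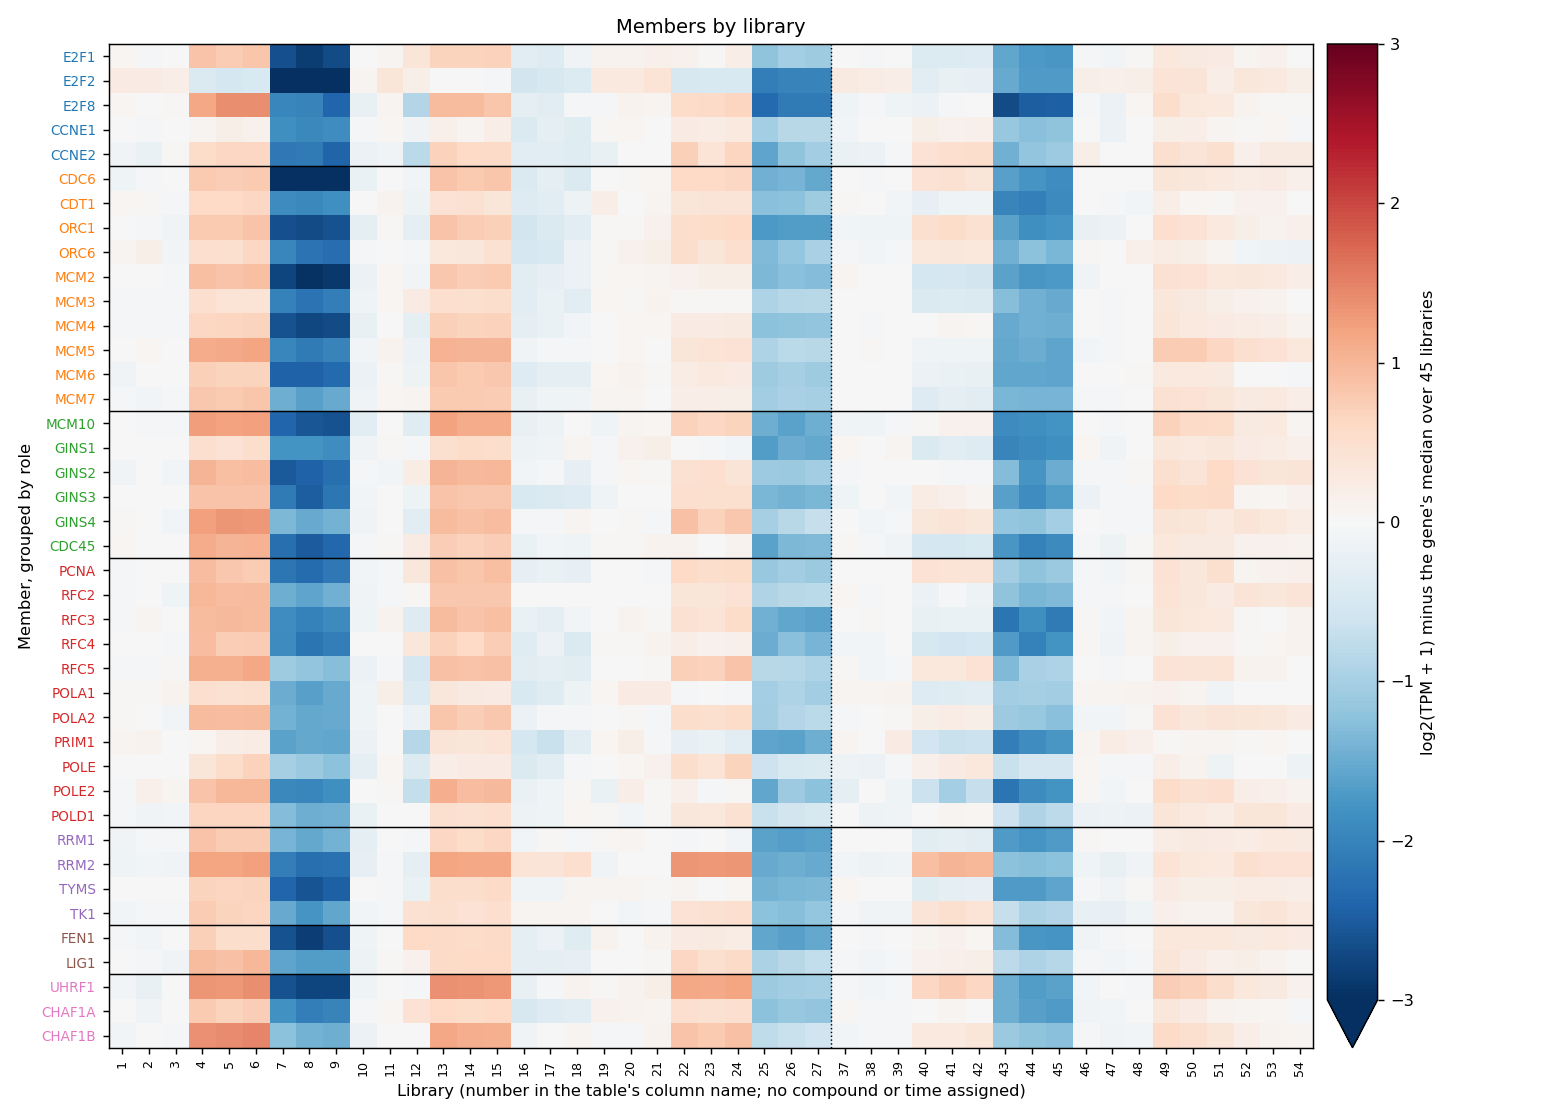
Level of each of the 41 members (rows, grouped by role and coloured by it) in each of the 45 libraries (columns, by the number in the column name), as log2(TPM + 1) minus the gene's median, with blue for lower, red for higher and values under -3 drawn at the end of the scale. Libraries 7 to 9, 25 to 27 and 43 to 45 form blue columns in every role, and libraries 4 to 6 and 13 to 15 are red in nearly all rows, with E2F2 blue in libraries 4 to 6.

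Among the regulators, E2F1, an activator of S phase genes, ranged from 8.90 through a median of 70.6 to 128 TPM. It was lowest in library 8 and highest in library 4, the same libraries that held the ends of the member score. E2F2, a second activator, ranged from 5.79 through 76.2 to 102 TPM. Its lowest values were in libraries 7 to 9, but its highest was in library 49, and in libraries 4 to 6, where the score was highest, it stood at 52.9 to 55.9 TPM, under its own median. In those 3 libraries E2F1 was at 121 to 128 TPM. The ratio of E2F2 to E2F1 therefore ran from 0.436 in library 6 to 1.31 in library 11. E2F8, an atypical E2F that represses E2F targets later in the cycle, ranged from 2.40 through 20.7 to 56.2 TPM. It was lowest in library 43 and highest in library 5. CCNE1, a cyclin E that activates CDK2, ranged from 9.27 through 38.5 to 47.8 TPM, so its highest library was close to its median. CCNE2, the second E-type cyclin, had lower levels, from 1.01 through 9.70 to 16.7 TPM. CCNE1 was highest in library 24 and CCNE2 in library 22, and both were lowest in libraries 7 to 9.

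Among the genes that license origins, CDC6, the ATPase that loads the helicase ring, ranged from 4.44 through 50.1 to 91.3 TPM. CDT1, its partner in loading, ranged from 8.96 through 40.2 to 62.2 TPM. The pair did not keep its proportion: CDC6 over CDT1 was 0.422 in library 9, a median of 1.32, and 2.01 in library 40. In libraries 7 to 9 CDC6 stood at 4.44 to 5.24 TPM and CDT1 at 9.73 to 10.5 TPM, whereas in libraries 43 to 45 CDC6 stood at 13.2 to 15.5 TPM and CDT1 at 8.96 to 9.94 TPM. The lowest library for CDC6 was thus not the lowest for CDT1. ORC1, the largest subunit of the origin recognition complex, ranged from 3.73 through 29.5 to 53.95 TPM, and ORC6, its smallest, from 9.71 through 51.5 to 80.3 TPM.

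The 6 subunits of the MCM2 to MCM7 ring, which assemble in equal numbers, were among the most abundant members. Their medians ran from 135 TPM for MCM2 and 135 TPM for MCM5 through 146 TPM for MCM6, 174 TPM for MCM4 and 183 TPM for MCM7 to 229 TPM for MCM3. MCM3 ranged from 48.6 to 329 TPM and MCM2 from 16.5 to 252 TPM. MCM4 ranged from 25.4 to 285 TPM, MCM5 from 30.2 to 307 TPM, MCM6 from 26.3 to 262 TPM and MCM7 from 58.2 to 325 TPM. Within a library the highest subunit exceeded the lowest by 1.347-fold in library 4, by a median of 1.69-fold, and by 3.68-fold in library 9. MCM3 was the highest of the 6 in 37 libraries and MCM2 the lowest in 29. The proportion was thus closest to equal where the score was highest and widest in library 9, among those where it was lowest.

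Of the genes that activate the helicase, MCM10, which helps the ring to start unwinding, ranged from 2.19 through 18.7 to 45.6 TPM. CDC45, a part of the active helicase, ranged from 6.83 through 42.8 to 93.7 TPM. The GINS complex completes that helicase, and its 4 subunits had medians of 36.01 TPM (GINS1), 37.3 TPM (GINS2), 22.1 TPM (GINS3) and 15.6 TPM (GINS4). Within a library the highest GINS subunit exceeded the lowest by 1.73-fold to 3.57-fold, with a median of 2.35-fold. The largest ratio was in library 12, one of the libraries that stood apart. GINS2 was the highest of the 4 in 33 libraries and GINS4 the lowest in 38.

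PCNA, the sliding clamp, was the most abundant member by its median, with 92.0, 458 and 872 TPM as lowest, median and highest. It was lowest in library 8 and highest in library 4. The subunits of the clamp loader were unequal in every library: RFC4 was the highest in all 45, and the highest exceeded the lowest by 4.42-fold to 10.3-fold. The largest ratio was in library 12, one of the libraries that stood apart. RFC4 ranged from 24.0 through 114 to 217 TPM and RFC2 from 17.1 through 53.4 to 107 TPM. RFC3 ranged from 3.46 through 19.4 to 39.0 TPM and RFC5 from 7.56 through 20.5 to 46.6 TPM. Among the polymerases, POLA1 and POLA2, subunits of the priming polymerase alpha, had medians of 32.7 and 28.1 TPM, and PRIM1, the catalytic primase, 51.5 TPM. POLD1, the catalytic subunit of polymerase delta, ranged from 20.5 through 58.1 to 91.6 TPM. POLE, the catalytic subunit of polymerase epsilon, varied least of the members, from 6.88 through 17.6 to 28.9 TPM. POLE2, its accessory subunit, was the least abundant member and went from 0.612 through 6.35 to 14.7 TPM. POLE over POLE2 ran from 1.40 in library 13 to 17.6 in library 43, with a median of 2.83. Library 43, which stood apart from the others, held the lowest POLE2 level (0.612 TPM).

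The nucleotide supply genes were abundant. RRM2, the regulated subunit of ribonucleotide reductase, ranged from 82.3 through 396 to 996 TPM, and RRM1, its large subunit, from 54.5 through 188 to 341 TPM. RRM2 did not follow the score at the upper end: its highest value was in library 24, with 975 to 996 TPM in libraries 22 to 24 against 897 to 926 TPM in libraries 4 to 6. RRM1 in those libraries stood at 179 to 190 and at 320 to 341 TPM. The ratio of RRM2 to RRM1 accordingly ran from 1.19 in library 9 to 5.57 in library 24, with a median of 2.35. TYMS, which makes thymidylate, ranged from 57.5 through 350 to 561 TPM, and TK1, which salvages thymidine, from 41.9 through 145 to 245 TPM. Both were lowest in library 8.

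FEN1, the nuclease that trims Okazaki fragments, ranged from 25.8 through 190 to 314 TPM, and LIG1, the ligase that joins them, from 14.7 through 49.3 to 99.1 TPM. UHRF1, which binds hemimethylated DNA behind forks, ranged from 3.96 through 32.4 to 86.5 TPM. CHAF1A and CHAF1B, subunits of the histone chaperone CAF-1, ranged from 21.7 through 94.2 to 163 TPM and from 18.8 through 54.005 to 150 TPM. These 5 genes were lowest in library 8 or 9 and highest in library 4 or 6.

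The spread of each gene was taken as the ratio of the 90th to the 10th percentile of its TPM over the 45 libraries. All 41 members reached 2-fold, as did 48.1% of all genes that passed the filter. At 4-fold there were 29 members, against 11.0% of all genes. The median ratio was 4.73 over the members and 1.97 over all genes that passed, and 1.82 over the 9258 genes whose medians lay within the range of the members' medians. POLE2 (11.8), E2F8 (11.1) and MCM10 (9.07) had the widest spread, and POLE (2.04), POLD1 (2.35), POLA1 (2.57) and CCNE1 (2.68) the narrowest. By role, the median ratio was 5.75 for helicase activation, 5.17 for E2F factors and cyclin E and 4.99 for origin licensing. It was 4.91 for chromatin maintenance at forks and 4.59 for nucleotide supply. The lowest were 3.82 for Okazaki fragment maturation and 3.79 for the clamp, clamp loader and polymerases. Most of the spread lay between the 9 lowest libraries and the others: over the 36 libraries with a score of -0.27 or more, the median ratio was 1.92, against 1.72 for 12183 genes with a median of at least 1 TPM there. Over those libraries 16 of 41 members (39.0%) reached 2-fold, against 32.5% of all genes, a share near the background. The split was made on the members' own score, so the narrower spread of the members over the 36 libraries is in part built in. With each library scaled to 38 ERCC rows in place of the TPM total, the median ratio was 6.77. On that scale 99.97% of all genes reached 2-fold, so the members' count says nothing about them there.

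**Figure D2:**
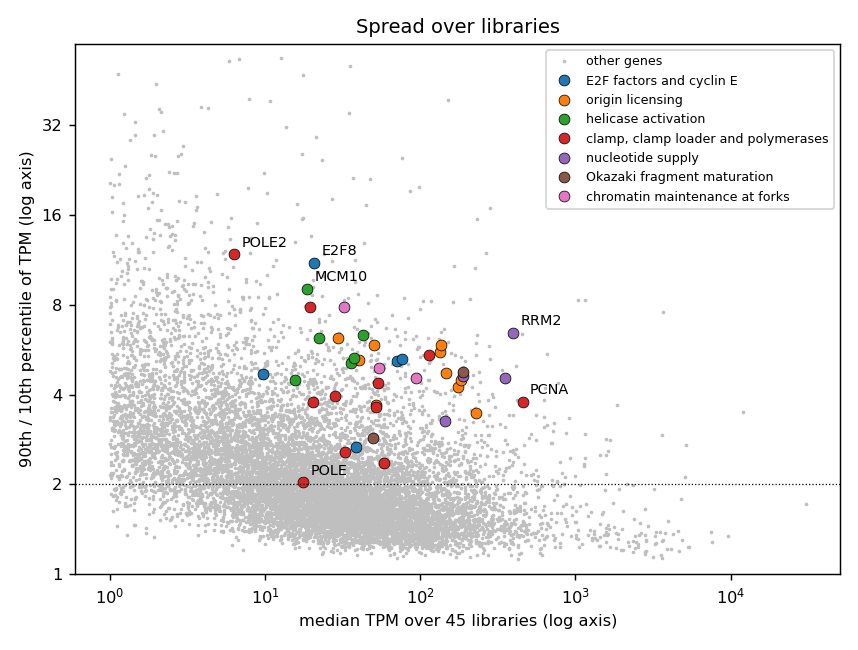
Spread over libraries (90th over 10th percentile of TPM, log axis) against the median TPM over the 45 libraries (log axis) for each member (coloured by role) and for each other gene with a median of at least 1 TPM (grey). All 41 members lie on or above the dotted line at 2-fold, from POLE at 2.04 to POLE2 at 11.8.

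Co-variation was measured as Spearman's rho of log2(TPM + 1) over libraries, with no p, since the libraries include replicates that cannot be identified and share cell line, table and scaling. Because the 9 lowest libraries lay well apart, values over all 45 libraries are given beside values over the 36 others, except for single pairs of members. Over the 820 pairs of members the median rho was 0.856, 718 pairs (87.6%) reached 0.7 and none was below 0. Over the 36 libraries the median was 0.724, and 28 pairs were below 0. Over the 9 lowest libraries alone it was 0.717. Without libraries 8 and 9, whose scores were farthest from the median, the value over the remaining libraries was 0.837. Most pairs of members thus varied together also among libraries whose scores did not differ so widely. The same values over pairs of all genes are not given here, so these counts of pairs have no background beside them.

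Each member was then set against the score of the other 40. The median rho was 0.913 over all libraries, and 39 members reached 0.7. Over the 36 libraries the median was 0.839, with 35 members at 0.7 or more. Among genes that were no member, 7.03% reached 0.7 with the member score over all libraries and 6.34% over the 36, and their median rho was 0.0494 and 0.267. The closest followers of the other members were MCM4 (0.977, and 0.957 over the 36 libraries), ORC1 (0.966 and 0.941), POLA2 (0.962 and 0.937) and MCM10 (0.961 and 0.940). The single pairs with the highest values were E2F1 with CDC45 (0.982) and MCM2 with MCM7 (0.981).

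Several members stood apart. E2F2 had a rho of 0.430 with the others over all libraries and of -0.0978 over the 36. Its Pearson's r over all libraries was 0.845. Its rho was 0.452 over columns 1 to 27 and 0.705 over columns 37 to 54, so it was lower over the first run of columns. Its level was under its median not only in libraries 4 to 6. The same held in libraries 22 to 24 (54.2 to 55.5 TPM, with scores of 0.37 to 0.43), 16 to 18 (51.9 to 57.4 TPM) and 40 to 42 (59.7 to 65.5 TPM). PRIM1 had 0.672 and 0.366, and POLA1 0.755 and 0.531. Those genes, whose products work in the same primase complex, were each other's closest member (0.864). RRM1 had 0.804 and 0.637, and GINS1 0.814 and 0.650. Over the 9 lowest libraries alone RRM1 (-0.410) ran against the others, whereas E2F8 (-0.142) and PRIM1 (-0.0753) showed little relation to them. RRM1 was at 63.8 to 70.3 TPM in libraries 7 to 9 and at 54.5 to 57.0 TPM in libraries 43 to 45. In the same libraries MCM2 was at 16.5 to 19.0 and 39.7 to 43.4 TPM. The 20 members with E2F letters in their promoter had a median rho with the others of 0.915, including E2F2, and the 16 without them 0.892, so presence of the letters did not separate members by how closely they followed the rest.

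**Figure D3:**
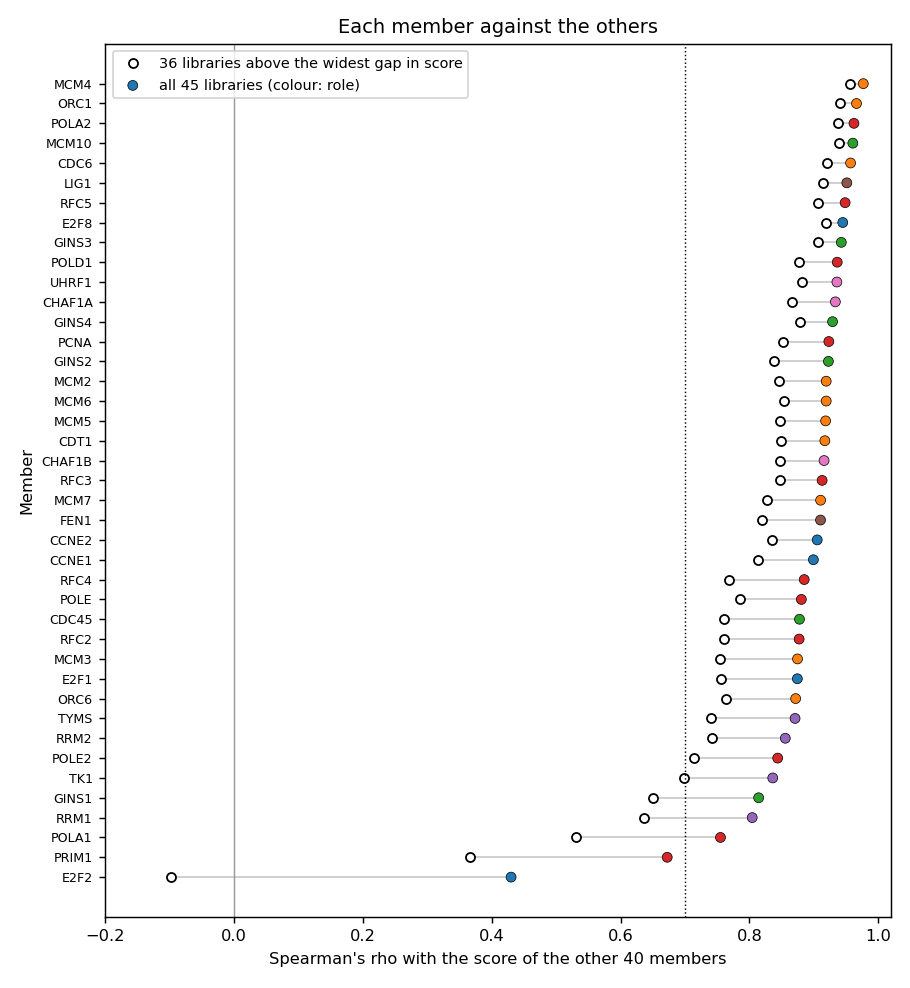
Spearman's rho of each member with the score of the other 40 members over all 45 libraries (filled, coloured by role) and over the 36 libraries with a score of -0.27 or more (open circles), with dotted line at 0.7. Both values are close for MCM4 and ORC1 at the top, and E2F2 lies at the bottom with 0.430 and -0.0978.

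The other genes of DNA replication, a list of 35 that shares no gene with the members, followed the member score in most cases. Their median rho was 0.825 over all libraries and 0.688 over the 36, with 27 of 35 and 17 of 35 at 0.7 or more. POLD3, a subunit of polymerase delta, was at 0.956 and 0.923, and RECQL4, a helicase that acts at origins, at 0.953 and 0.910. WDHD1 was at 0.947 and 0.898, and TIMELESS, a fork protection factor, at 0.946 and 0.905. Of the origin recognition subunits outside the member list, ORC5 was at 0.896 over all libraries and 0.846 over the 36, and ORC2 was lower on both, at 0.365 and 0.369. ORC3 (0.731 and 0.525) and ORC4 (0.159 and 0.601) changed places between the sets of libraries. Of the remaining polymerase delta subunits POLD2 was at 0.539 and 0.0813, and POLD4 at -0.496 and -0.0450. TYMP, a thymidine phosphorylase, was at -0.0129 and -0.396. The spread of ORC2 was 1.45-fold and that of RPA1, a subunit of the single-strand binding complex, 1.66-fold, under the 2.04-fold of the least variable member. In the list 26 of 35 reached 2-fold.

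Regulators of the E2F pathway outside the member list were more mixed. Of 20, 7 reached a rho of 0.7 over all libraries and 6 over the 36, and the median was 0.321 and 0.408. CDC25A, a phosphatase that activates CDK2, was at 0.967 and 0.939, and CDK2 itself at 0.954 and 0.909. RBL1 (0.895 and 0.808), CCND3 (0.882 and 0.778), SKP2 (0.880 and 0.778) and CCNA2 (0.854 and 0.743) also reached 0.7 on both, and E2F7 (0.813 and 0.667) over all libraries. E2F5 (-0.530 and -0.675) and RB1 (-0.471 and -0.390) ran against the members on both. Unlike CCND3, the D-type cyclins CCND1 (-0.0661 and -0.459) and CCND2 (-0.157 and -0.253) were below 0 on both. So were FBXW7 (-0.287 and -0.167), RBL2 and CDK6. The values of several genes differed in size between the sets of libraries, and in some cases also in sign. E2F4 was at 0.308 and 0.469, RBL2 at -0.410 and -0.102, and E2F3 at 0.0657 and -0.214. CDK4 and CDK6, partners of D-type cyclins, were at 0.334 and -0.0787 over all libraries and at -0.245 and -0.365 over the 36, so CDK4 changed sign. RB1 ranged from 14.5 to 36.2 TPM and E2F4 from 69.0 to 108 TPM, so neither message approached 0 in any library.

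The 18 genes of G2 and M phase gave a different picture in the lowest libraries. Over all 45 libraries their median rho with the member score was 0.821 and 17 of 18 reached 0.7. Over the 36 libraries the median was 0.718 with 10 of 18 at 0.7 or more, and over the 9 lowest libraries it was -0.439. A mitotic score, formed in the same way as the member score, was -0.37, -0.48 and -0.53 in libraries 7, 8 and 9, where the member score was -1.95, -2.12 and -2.07. In libraries 25 to 27 the mitotic score was -1.21, -1.15 and -1.16, beside member scores of -1.24, -1.17 and -1.11. In libraries 43 to 45 it was -1.52, -1.52 and -1.48, beside -1.48, -1.62 and -1.58. The lowest libraries by replication genes were thus not the lowest by mitotic genes. CCNB1, the cyclin that drives entry into mitosis, stood at 127 to 140 TPM in libraries 7 to 9, near its median of 133 TPM, against 71.1 to 74.9 TPM in libraries 25 to 27 and 50.9 to 59.6 TPM in libraries 43 to 45. MCM2 was lowest where CCNB1 was highest of the 9, with 16.5 to 19.0 TPM in libraries 7 to 9, against 52.3 to 55.7 TPM in libraries 25 to 27 and 39.7 to 43.4 TPM in libraries 43 to 45. CDK1, the kinase that CCNB1 activates, was at 47.1 to 52.0, 33.1 to 35.5 and 31.8 to 36.2 TPM in these runs, all well under its median of 104 TPM. CCNB1 thus does not stand for the mitotic list in libraries 7 to 9, where the mitotic score was below 0. Smaller departures in the same direction were seen in libraries 16 to 18, where the member score lay below the mitotic score by a difference of -0.40 to -0.46, in libraries 40 to 42 (-0.33 to -0.39) and in libraries 22 to 24 (-0.31 to -0.35), against -1.55 to -1.63 in libraries 7 to 9. Spike-in shares in libraries 7 to 9 were 9.01%, 17.4% and 8.64%, a factor that all genes of a library share.

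**Figure D4:**
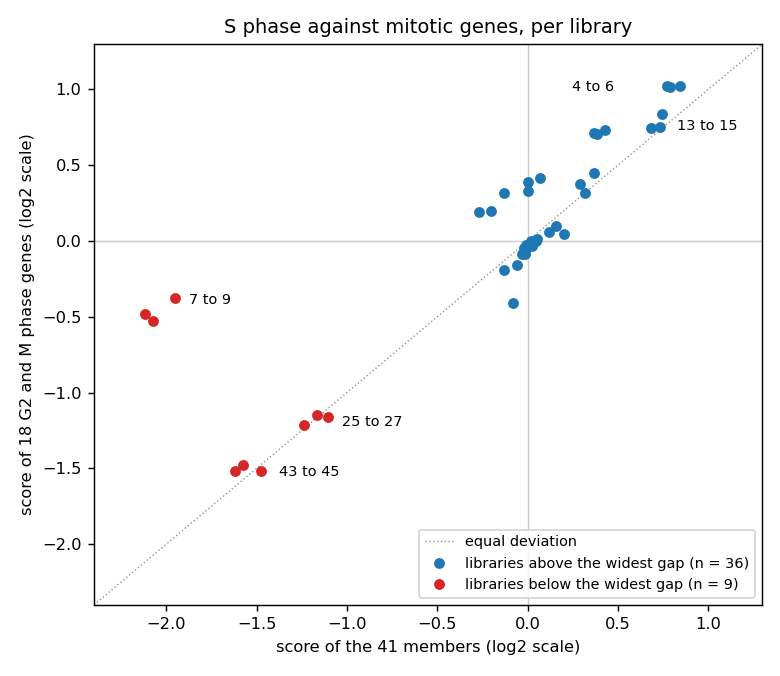
Mitotic score (18 G2 and M phase genes) against the member score (41 genes), both on the log2 scale, with 1 point for each of the 45 libraries (red for the 9 lowest member scores, blue for the others) and a dotted line of equal deviation. Libraries 25 to 27 and 43 to 45 lie near the line, and libraries 7 to 9 lie far above it, with member scores of -1.95 to -2.12 and mitotic scores of -0.37 to -0.53.

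**Figure D5:**
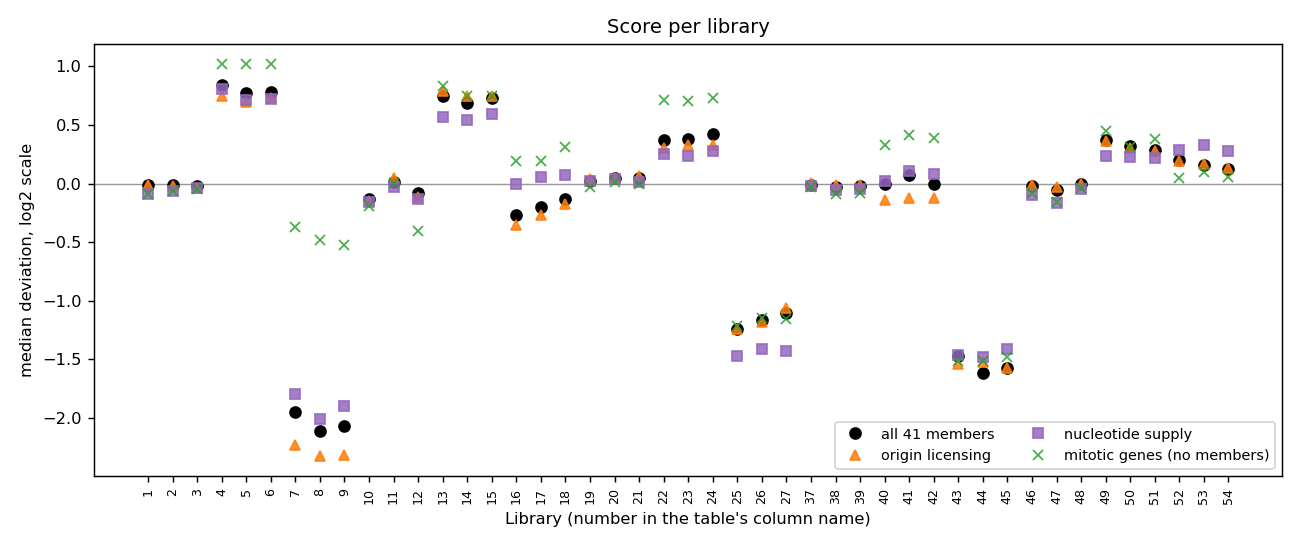
Score of all 41 members (black circles), of the origin licensing members (triangles), of the nucleotide supply members (squares) and of 18 mitotic genes that are no members (crosses) in each library, as the median deviation from each gene's median on the log2 scale. The mitotic crosses stand far above the member scores in libraries 7 to 9 and close to them in libraries 25 to 27 and 43 to 45.

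Among 10 CDK inhibitors and quiescence genes, 7 passed the filter, and CDKN2A, CDKN2B and CDKN2C had a median of 0 TPM. The median rho of the 7 with the member score was -0.152, and -0.163 over the 36 libraries. BTG2, an antiproliferative gene, was at -0.897 and -0.812, and it was the only gene of the list at -0.7 or less, as were 1.74% of all genes that were no member. BTG2 ranged from 273 TPM in library 4 through 557 to 1567 TPM in library 44. In libraries 7 to 9 it stood at 741 to 837 TPM, so its order among the lowest libraries also differed from that of the members. CDKN1A, which encodes p21, had a rho of -0.101 over all libraries and of -0.541 over the 36. It was lowest in libraries 7 to 9, at 23.1 to 25.1 TPM, and stood at 41.8 to 44.6 TPM in libraries 4 to 6, the libraries with the highest member score, against a median of 109 TPM. CDKN1B, which encodes p27, had -0.504 and -0.163 and was highest in libraries 43 to 45, at 457 to 498 TPM, against a median of 247 TPM.

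Of all genes that were no member, the 10 whose level followed the member score most closely were GMPPB (0.979, and 0.966 over the 36 libraries), DONSON (0.976), CDC25A (0.967), USP1 (0.966), ZNF788 (0.965), MCMBP (0.960), POLD3 (0.956), EXO1 (0.955), CDK2 (0.954) and RECQL4 (0.953). Over the 36 libraries the 10 lay between 0.909 and 0.966. DONSON encodes a factor needed for helicase assembly and ranged from 33.6 through 89.7 to 156 TPM. MCMBP binds the MCM proteins, and USP1 removes ubiquitin from PCNA. GMPPB, an enzyme of GDP-mannose synthesis, ranged from 28.5 through 54.8 to 99.98 TPM. The 10 that ran most against the score were SYT1 (-0.897), BTG2 (-0.897), HHLA3 (-0.892), KRCC1 (-0.876), TMBIM1 (-0.874), PHF23 (-0.870), PEX6 (-0.862), TCTA (-0.861), HEXDC (-0.854) and TRPV1 (-0.854). Over the 36 libraries they lay between -0.818 and -0.718. SYT1, a calcium sensor of vesicle release, ranged from 1.42 through 8.62 to 24.2 TPM.

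The scale of the values bears on the order of the libraries. When each library was scaled to the ERCC rows, the member score ran from -3.52 in library 8 to 1.57 in library 15. Of the 9 libraries lowest by TPM, 8 were also among the lowest 9 on this scale. Library 27 was the exception, at -0.40, while library 54 lay lower at -0.80. The median of all genes itself shifted between -1.39 in library 8 and 0.92 in library 27 on this scale. Whether the amount of spike-in per cell was held constant is not given in the sources used here, so levels per cell cannot be read from either scale.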

How the data were processed

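RNA of MM.1S cells was sequenced from strand-specific mRNA libraries, per the labels' protocols. The submitters' processing notes name STAR, featureCounts, FastQC, MultiQC and build hg19. The annotation and whether counting used strand are not given in the sources used here, so genes that overlap on opposite strands cannot be told apart. The authors deposited 1 table of TPM, from which depth cannot be known. None of its 45 value columns was given a sample (45 left without one).

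Values were analysed as log2(TPM + 1), with a filter of a median of at least 1 TPM for all-gene backgrounds. Scores, percentile ratios and correlations were computed with Python 3.11.15, pandas 2.3.3, NumPy 2.4.6 and SciPy 1.17.1, figures with Matplotlib 3.10.9, and the code was tested on simulated data. A ratio of at least 2 or 4 and a rho of at least 0.7 were counted. The genes named are all members, the 10 other genes with the highest and the 10 with the lowest rho, and genes of the lists counted. Members and lists were chosen with earlier results of these data known. Alternatives were another pseudocount (0.1), a ratio of TPM + 1, centring, rescaling without the rows of IGLL5, IGLL1 and IGLL3P, other filters, Pearson's r and subsets of libraries. Promoters, exons and motif letters came from RefSeq and GENCODE annotation on GRCh38.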

Additional observations from a re-analysis of the deposited data

How the results depend on the processing

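With each library scaled to the ERCC rows, an alternative chosen after seeing the data, the median ratio of the members was 6.77, 99.97% of all genes reached 2-fold, 34.8% of other genes reached a rho of 0.7 with the score, and the median rho was 0.953 for mitotic and 0.738 for nucleolar genes. Over only the 36 libraries above the gap in scores, also chosen after seeing the data, the median ratio was 1.92, 16 members and 32.5% of all genes reached 2-fold, the median rho over pairs was 0.724 and that of mitotic genes 0.718, and the median of nucleolar genes changed sign to -0.0252. Over only the 9 libraries below it, the median ratio was 2.01, 22 members and 29.3% of all genes reached 2-fold, the median over pairs was 0.717, 15.6% of other genes reached 0.7, the medians of other replication and nucleolar genes were 0.477 and 0.820, and that of mitotic genes changed sign to -0.439. Over columns 37 to 54 the median over pairs was 0.744 and that of nucleolar genes 0.735. Without a filter on low values 4.14% of other genes reached 0.7, since more low genes were counted. For the other changes the cause was not tested. The remaining 111 values, including every one from centring, rescaling without the IGLL rows, or leaving out 1 library, kept their direction and stayed within the set limits. The rank correlation of 1 gene with another cannot change with the pseudocount, so a pseudocount of 0.1 does not test those between pairs. Correlations with the score can change in principle, but the values were the same, with 7.03% of other genes at 0.7. For the spread the alternative was a ratio of TPM + 1, with a median of 4.66 and 40 members at 2-fold. Leaving out 1 library at a time gave a median level of 51.4 to 51.8 TPM, a median ratio of 4.36 to 4.81, 40 to 41 members at 2-fold, a median over pairs of 0.847 to 0.869 and 39 to 40 members at 0.7. No mitochondrially encoded row was found by name. The rescaling left out only IGLL5 (median 30394 TPM), IGLL1 (0.356 TPM) and IGLL3P (0 TPM). It is thus in effect a rescaling without IGLL5 and says little about other immunoglobulin transcripts. No paired analysis was possible because the columns carry no replicate number. Depth is unknown, and no value has an interval for counting error.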

Other observations

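The 14 nucleolar genes, which make ribosomes and are known MYC targets, did not follow the replication genes as closely. Their median rho with the member score was 0.429 over all 45 libraries, from 0.269 (POLR1A) to 0.768 (NCL), and -0.0252 over the 36 libraries with a score of -0.27 or more. In libraries 4 to 6 the nucleolar score was -0.31, -0.32 and -0.29 while the member score was at its highest, and in libraries 13 to 15 it was 0.17, 0.11 and 0.21. In libraries 7 to 9 it was lowest, at -1.05, -1.17 and -1.09. MYC had a rho of 0.118 with the member score over all libraries and of -0.324 over the 36, so its sign changed. IRF4, the myeloma factor named in the title of the study, had -0.173 and -0.502. MYC was at 7.12 to 8.92 TPM in libraries 4 to 6 and at 144 to 150 TPM in libraries 13 to 15, although the member scores of these libraries were alike (0.77 to 0.85 and 0.68 to 0.75). In libraries 7 to 9, with the lowest member scores, MYC was at 3.56 to 4.52 TPM. IRF4 was at 29.6 to 33.6 TPM in libraries 4 to 6 and at 35.0 to 39.8 TPM in libraries 7 to 9, so libraries at both ends of the member score had low levels of both factors.

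The member scores of the libraries, for which no column is tied to a group, had 1 wide space. It measured 0.84, from -1.11 to -0.27, and the next widest, 0.33, lay among the scores below it. Above it the scores ran on without a space of that size. Below it lay libraries 7 (-1.95), 8 (-2.12), 9 (-2.07), 25 (-1.24), 26 (-1.17), 27 (-1.11), 43 (-1.48), 44 (-1.62) and 45 (-1.58). Libraries 16 (-0.27), 17 (-0.20), 18 (-0.13), 10 (-0.13), 12 (-0.080) and 47 (-0.059) came next. Close to 0 were libraries 1 (-0.013), 2 (-0.016), 3 (-0.022), 11 (0.017), 19 (0.022), 20 (0.050), 21 (0.046), 37 (-0.010), 38 (-0.029), 39 (-0.019), 40 (0), 41 (0.071), 42 (0), 46 (-0.024) and 48 (-0.0022). Above them lay libraries 49 (0.37), 50 (0.32), 51 (0.29), 52 (0.20), 53 (0.16), 54 (0.12), 22 (0.37), 23 (0.38) and 24 (0.43). The highest were libraries 4 (0.85), 5 (0.77), 6 (0.79), 13 (0.75), 14 (0.68) and 15 (0.73). No condition is assigned from these scores.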
